A study of Homo sapiens with 13 samples.

Results

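The mRNAs of TIMP1, TMSB10, TECR, APEX1, MORF4L2, SUB1, ZNFX1 and SZRD1 were recovered at a higher level with biotinylated miR-17-5p and with its isomiR than with unrelated duplexes. These 8 genes, of 8378 in the table, were chosen by measured values of the same libraries, so their excess over the unrelated duplexes is given as a description and was not tested. All 8 genes were measured, APEX1 by 2 probes and each of the others by 1, which makes 9 of 12007 probes. The cells were HEK293T, an established line from human embryonic kidney, which received 200 pmol of a biotinylated duplex and were harvested 24 h later, and the mRNA captured on streptavidin was hybridized to Illumina bead arrays. The 13 libraries fall into 5 groups by duplex. Canonical miR-17-5p, the isomiR miR-17-5p-iso and the unrelated miR-27a have 3 replicates, and the groups of 2 are miR-182-iso and miR-23b. The suffix iso marks an isomiR, a variant of the miRNA with a shifted 5′ end. Every library is thus a transfected pull-down, the biotin sits on the 3′ end of the forward strand, and no mock-transfected library is among these samples. The unrelated duplexes below are miR-23b, miR-27a and miR-182-iso, whose group means were weighted equally.

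A miRNA guides an Argonaute protein to mRNAs that pair with it, most often through the seed, the bases near its 5′ end, and the mRNA is then repressed or degraded. The miR-17 family comes from the oncogenic miR-17-92 cluster and relatives of it and is known for promoting proliferation. In a biotin pull-down the transfected duplex itself is the bait, so an mRNA bound to it is carried onto the beads. A shift of the 5′ end changes the seed while leaving almost the whole central part of the miRNA in place. Signal in a pull-down depends on how much of an mRNA the cells held as well as on how much of it was captured, and these cannot be told apart here, because no total RNA is among these samples.

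The forward strands of the duplexes are shown because the comparisons turn on how far the 2 miR-17 strands resemble each other and differ from the rest. They run 5′ to 3′, and capitals mark the seed, bases 2 to 8.
miR-17-5p: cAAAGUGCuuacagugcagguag
miR-17-5p-iso: uCAAAGUGcuuacagugcaggua
miR-27a: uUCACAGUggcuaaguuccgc
miR-23b: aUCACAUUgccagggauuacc
miR-182-iso: uGGCAAUGguagaacucacacu
The strands come from the study's oligonucleotide list and were compared with the mature miRNAs of RefSeq (GRCh38.p14). The miR-17-5p strand is identical to the mature miRNA of MIR17 (chr13:91350618-91350640, plus strand). The isomiR lies in the same hairpin, begins 1 base upstream and ends 1 base earlier, so the 2 strands have 22 bases in common. Their seeds are not identical but share a run of 6 bases, and of the 3 windows of 11 bases that begin at base 3, 4 or 5 in each strand, 2 are common to both. The miR-27a strand equals the mature miRNA of MIR27A (chr19:13836447-13836467, minus strand). The miR-23b strand lacks the last 2 bases of its mature miRNA (chr9:95085265-95085287, plus strand), and miR-182-iso begins at base 3 of its own (chr7:129770447-129770470, minus strand). None of these 3 shares a window of 11 bases or a seed with either miR-17 strand, and the longest run in common with one is 6 bases, with miR-27a. The seeds of miR-27a and miR-23b share 5 bases.

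Values are the deposited normalized signals on a scale close to log2, which is compressed for dim probes. Values ran from 7.42 to 15.5 over the table and library medians from 8.53 to 8.60. In clustering of the libraries by all probes, miR-17-5p replicate 2 did not join replicates 1 and 3 first, as these joined the miR-17-5p-iso libraries before it did, and both miR-182-iso libraries joined last of all. Of the 9 member probes, 7 were lowest of the group in miR-17-5p replicate 2, which was lowest in 34.3% of all probes. Values without this replicate, or without miR-182-iso, are therefore added where they change a call, and for some of the differences that moved. Of 8 markers that HEK293T cells express, 7 were in the table, among them VIM, KRT8 and KRT18. Of 10 markers of other cell types, 2 were, COL1A1 and CD68, with a summed signal of 9.01 to 9.89 in the miR-17 libraries and 8.73 to 10.8 in the unrelated ones, and their part in the results was not tested.

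**Figure D1:**
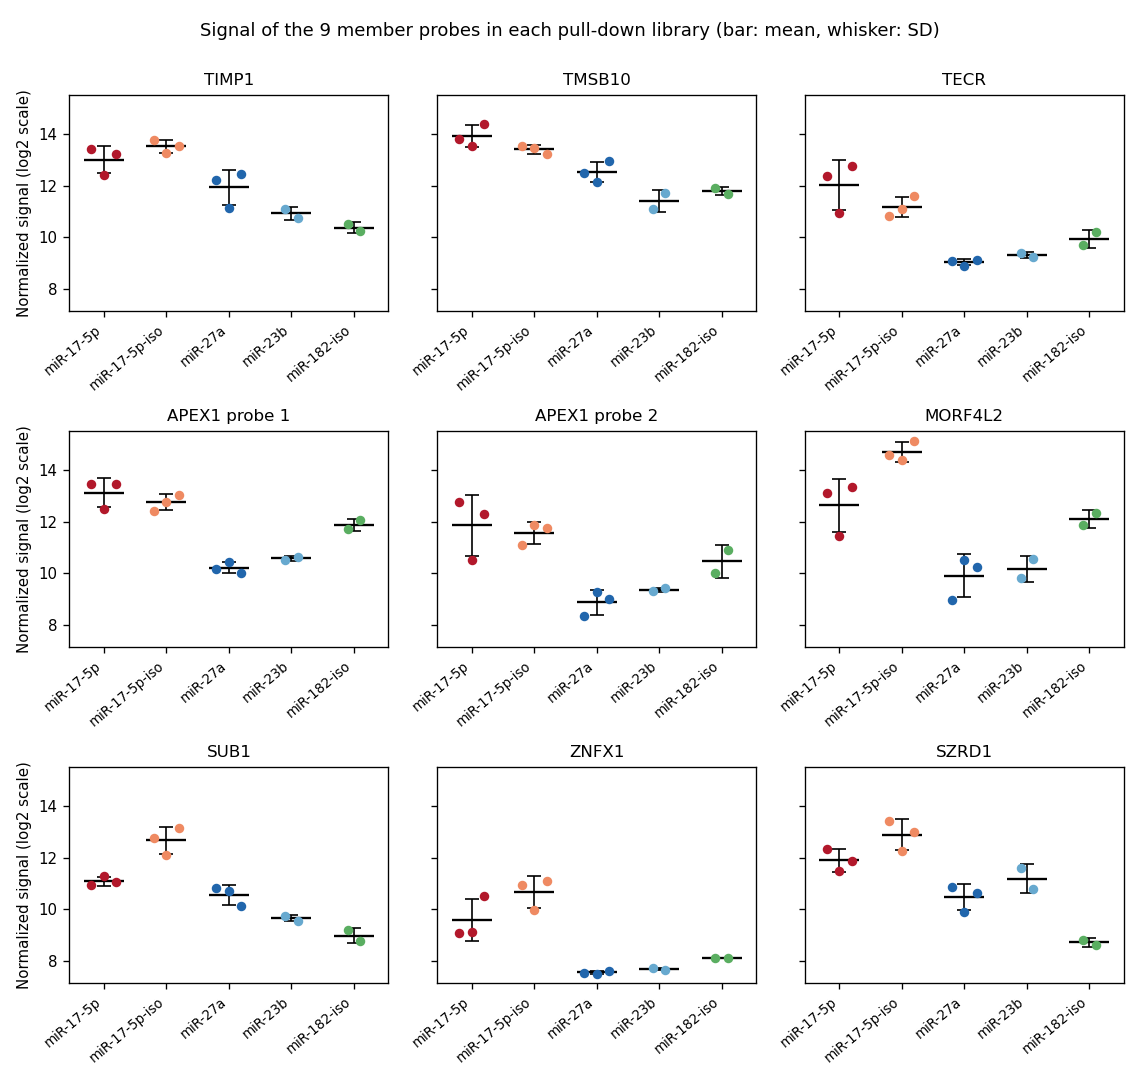
Normalized signal (log2 scale, y axis) of the 9 probes of the 8 genes in each library (points), by pull-down group (x axis), with the group mean (horizontal bar) and SD (whisker). The miR-17-5p-iso libraries lie above all 7 unrelated libraries in every panel, while miR-17-5p replicate 2, the middle red point, falls to or below the highest unrelated library for TIMP1, APEX1 probe 2, MORF4L2 and SZRD1.

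Across the 9 probes, the mean with miR-17-5p and the mean with miR-17-5p-iso were both above all 3 unrelated group means in 9 of 9. The 3 libraries of the isomiR lay above all 7 unrelated libraries for 9 probes, and those of miR-17-5p for 5. All 6 libraries of both groups lay above all 7 unrelated libraries for 5 probes, those of TMSB10, TECR, SUB1 and ZNFX1 and the brighter APEX1 probe. That held for 1.77% of all probes, and as the genes were selected on this contrast nothing is read from the count. Without miR-17-5p replicate 2 it held for 9 of 9 member probes and 2.78% of all. The median difference between the mean of the 2 miR-17 groups and the unrelated duplexes was 2.17 over the 9 probes, and 2.42 without both miR-182-iso libraries. Without these libraries the differences with miR-17-5p ran from 0.98 to 2.85 and those with the isomiR from 1.44 to 4.63.

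TIMP1 encodes a secreted inhibitor of matrix metalloproteinases. Its signal was 13.41, 12.41 and 13.21 in miR-17-5p replicates 1, 2 and 3, and 13.78, 13.26 and 13.51 in the isomiR libraries. With the unrelated duplexes it was 12.20, 11.15 and 12.44 with miR-27a, 11.11 and 10.74 with miR-23b, and lowest with miR-182-iso, at 10.52 and 10.24. All isomiR libraries were above every unrelated one, whereas miR-17-5p replicate 2 was just below miR-27a replicate 3. The difference from the unrelated duplexes was 1.93 ± 0.29 (SE) with miR-17-5p and 2.44 ± 0.29 with the isomiR. In order of the group means the isomiR came first, then miR-17-5p, miR-27a, miR-23b and miR-182-iso, and neighbouring groups overlapped in the first 2 steps of that order. Without both miR-182-iso libraries the isomiR difference was 2.09.

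TMSB10 encodes thymosin beta 10, a small protein that sequesters actin monomers. Signals were 13.81, 13.53 and 14.36 with miR-17-5p, and 13.54, 13.46 and 13.21 with the isomiR. Among the unrelated libraries they were 12.48, 12.15 and 12.94 with miR-27a, 11.09 and 11.71 with miR-23b, and 11.90 and 11.68 with miR-182-iso. Here the canonical miRNA came first and the isomiR second, with overlapping libraries, and the 6 libraries of both were above all others by at least 0.27. Its difference was 1.99 ± 0.22 (SE) with miR-17-5p and 1.50 ± 0.22 with miR-17-5p-iso. The next group was miR-27a, apart from both of its neighbours, and miR-182-iso and miR-23b overlapped below it.

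TECR encodes the reductase of the last step of very-long-chain fatty acid elongation. The probe gave 12.38, 10.95 and 12.77 with miR-17-5p and 10.84, 11.09 and 11.62 with miR-17-5p-iso. It gave 9.10, 8.91 and 9.12 with miR-27a, 9.41 and 9.24 with miR-23b, and 9.69 and 10.20 with miR-182-iso. Replicate 2 of miR-17-5p lay within the isomiR's range, and all 6 libraries were above the unrelated ones by at least 0.64. The difference was 2.59 ± 0.34 (SE) with miR-17-5p, the largest of the 9 probes in that comparison, and 1.74 ± 0.34 with the isomiR. Without miR-17-5p replicate 2 the former was 3.14.

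APEX1 encodes the main endonuclease that cuts abasic sites in base excision repair. The brighter of its 2 probes, which the annotation assigns to another transcript than the dimmer one, gave 13.43, 12.48 and 13.45 with miR-17-5p and 12.42, 12.77 and 13.04 with the isomiR. With miR-182-iso it gave 11.70 and 12.05, with miR-23b 10.52 and 10.63, and with miR-27a 10.19, 10.46 and 10.03. The groups kept that order from high to low, and only the first 2 overlapped. Its differences were 2.23 ± 0.22 (SE) with miR-17-5p and 1.85 ± 0.22 with the isomiR. The dimmer probe gave 12.74, 10.53 and 12.31 with miR-17-5p, 11.09, 11.86 and 11.76 with the isomiR, and at most 10.92 in the unrelated libraries, in miR-182-iso replicate 2. The isomiR differences were 2.34 on the brighter probe and 2.44 on the dimmer one if both libraries of that duplex were left out. Without miR-17-5p replicate 2 the differences with miR-17-5p were 2.55 on the brighter probe and 2.94 on the dimmer one. The group means of the dimmer probe had the same order, its differences were 2.28 ± 0.44 and 1.99 ± 0.44 with all libraries, and the 2 probes were nearer to each other than either was to any other member (root mean square distance 0.34 over the 13 libraries, each profile centred on its mean).

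MORF4L2 encodes a subunit with an MRG domain of the NuA4 histone acetyltransferase complex. It gave 13.09, 11.46 and 13.35 with miR-17-5p, and 14.56, 14.37 and 15.11 with the isomiR. It gave 11.87 and 12.35 with miR-182-iso, 9.81 and 10.54 with miR-23b, and 8.98, 10.52 and 10.26 with miR-27a. The isomiR libraries stood 1.02 or more above every miR-17-5p library, while miR-17-5p replicate 2 was below both miR-182-iso libraries. The difference from the unrelated duplexes was 3.95 ± 0.45 (SE) with the isomiR, first of all 12007 probes, and 1.90 ± 0.45 with miR-17-5p, rank 20. Without both miR-182-iso libraries the former was 4.63, and without miR-17-5p replicate 2 the latter was 2.48.

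SUB1 encodes a transcriptional coactivator that binds single-stranded DNA. Its signals were 10.94, 11.29 and 11.05 with miR-17-5p, and 12.77, 12.11 and 13.14 with the isomiR. They were 10.83, 10.73 and 10.13 with miR-27a, 9.75 and 9.57 with miR-23b, and 9.20 and 8.78 with miR-182-iso. No neighbouring groups overlapped in this order, although the lowest miR-17-5p library was only 0.11 above the highest miR-27a library. The difference was 2.94 ± 0.22 (SE) with the isomiR and 1.35 ± 0.22 with miR-17-5p, the smallest of the 9 probes in that comparison. Without the miR-182-iso libraries the latter was 0.98.

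ZNFX1 encodes a helicase-like zinc finger protein that takes part in sensing viral RNA. Its values were 9.11, 9.14 and 10.52 with miR-17-5p and 10.94, 9.99 and 11.12 with the isomiR. They were 8.12 and 8.12 with miR-182-iso, 7.74 and 7.68 with miR-23b, and 7.56, 7.53 and 7.62 with miR-27a. All 6 miR-17 libraries were at least 0.98 above the unrelated ones, the widest gap of the 9 probes. The differences were 2.88 ± 0.32 (SE) with the isomiR and 1.79 ± 0.32 with miR-17-5p. The unrelated values lie close to the lowest value in the table, 7.42, where the scale is compressed, and how far this reduces the differences was not measured.

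SZRD1 encodes a small protein with a SUZ domain, a motif that binds RNA. The probe gave 12.34, 11.47 and 11.88 with miR-17-5p, and 13.41 and 12.24 in isomiR replicates 1 and 2, with the third between them. It gave 11.60 and 10.79 with miR-23b, 10.87, 9.91 and 10.63 with miR-27a, and 8.84 and 8.62 with miR-182-iso. Every step of that order overlapped except the last, as miR-182-iso stood 1.07 or more below all other libraries. The difference was 2.75 ± 0.31 (SE) with the isomiR and 1.77 ± 0.31 with miR-17-5p. Without both miR-182-iso libraries these were 2.05 and 1.07.

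**Figure D2:**
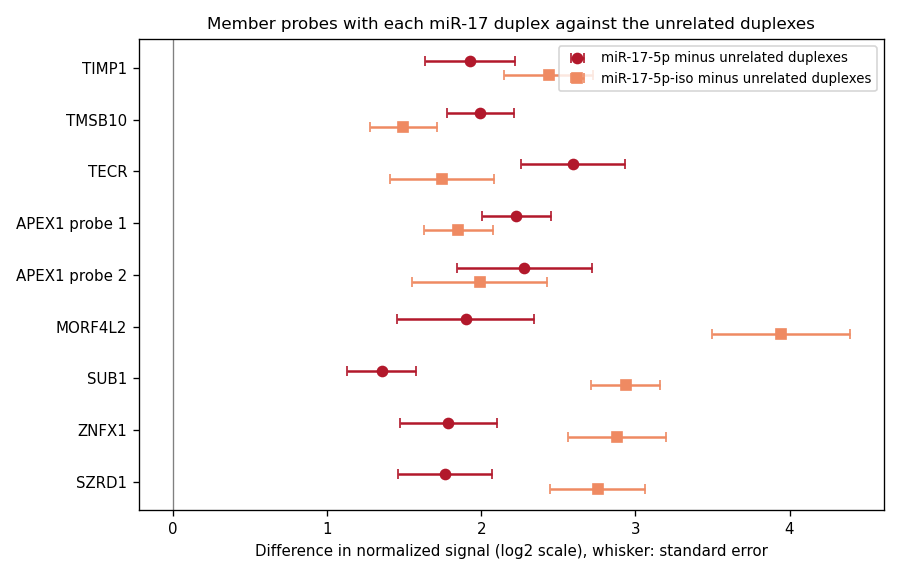
Difference in normalized signal (log2 scale, x axis) between each miR-17 duplex and the mean of the 3 unrelated groups, for the 9 probes (y axis), with the standard error as whisker. Circles (miR-17-5p) run from 1.35 to 2.59 and squares (miR-17-5p-iso) from 1.50 to 3.95, and squares lie to the right for TIMP1, MORF4L2, SUB1, ZNFX1 and SZRD1.

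Ranked over all 12007 probes by the smaller of the 2 differences from the unrelated duplexes, the 9 probes held ranks between 7 (the dimmer APEX1 probe) and 49 (SUB1). They are thus 9 of the first 49 probes and not the first 9. In all, 112 probes differed by at least 1 in both comparisons. Both comparisons share the same 7 unrelated libraries, so the 2 values of a gene are not independent. RefSeq lists pseudogenes named after TMSB10 (2), TECR (2), MORF4L2 (1), SUB1 (4) and SZRD1 (1), and whether their transcripts bind the same probes was not tested.

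The canonical miRNA and the isomiR were then compared directly, a contrast that did not itself choose the genes, although it uses the same libraries. The genes were chosen as high with both duplexes, so this test is not independent of the choice. The means were higher with the isomiR for 5 probes, those of TIMP1, MORF4L2, SUB1, ZNFX1 and SZRD1, and higher with miR-17-5p for 4, those of TMSB10, TECR and APEX1. SUB1 was the only gene past the threshold, and it was lower with miR-17-5p. Its difference was -1.58 ± 0.26 (SE; limma with Benjamini-Hochberg adjustment over all probes, adjusted p = 0.0264), from 12.7 ± 0.52 (SD, n = 3) with the isomiR to 11.1 ± 0.18 (n = 3) with miR-17-5p. The 2 groups did not overlap. That is 1 of 9 member probes, and 1.11% of all probes passed in either direction.

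The SUB1 call held in 12 of 18 alternatives, with an adjusted p from 0.00325 to 0.248 (limma). It was lost with only the 6 miR-17 libraries in the fit (0.248), and without miR-17-5p replicate 3 (0.0755), isomiR replicate 1 (0.0906) or 3 (0.101), or either miR-23b replicate (0.0527 each), while the difference stayed between -1.87 and -1.35. MORF4L2 had the larger difference, -2.05 ± 0.53 (SE), and its libraries did not overlap either, but its adjusted p was 0.112 (limma). Its 95% interval ran from -3.21 to -0.88. Without miR-17-5p replicate 2 the difference was -1.46 (limma, adjusted p = 0.162). The SD was 1.02 within miR-17-5p, where replicate 2 gave the lowest value, and 0.38 within the isomiR group. It passed in 1 of 18 alternatives, with brighter probes only (0.0293). ZNFX1 (-1.09, adjusted p = 0.224) and SZRD1 (-0.99, 0.258) did not pass in limma either, and their groups overlapped. ZNFX1 passed without miR-17-5p replicate 3 (-1.56, 0.0494), the library in which the miR-17-5p group overlapped the isomiR's, and SZRD1 with the replicate number as a block (0.0362).

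TIMP1 (-0.51, 95% interval -1.27 to 0.25) and TMSB10 (0.50, -0.07 to 1.07) did not pass. TECR was 0.85 higher with miR-17-5p (95% interval -0.03 to 1.73; limma adjusted p = 0.395), and without miR-17-5p replicate 2 it was 1.39 higher, with an adjusted p of 0.0346 (limma). APEX1 differed by 0.38 (-0.20 to 0.96) on the brighter probe and by 0.29 (-0.86 to 1.43) on the dimmer one, and neither passed. Without miR-17-5p replicate 2 these were 0.70 and 0.95, and without replicate 1 they were 0.22 and -0.15, so that the sign of the dimmer probe's difference rests on single libraries. The intervals of these 4 genes hold 0 but are wide, so they do not show that both strands captured equal amounts.

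**Figure D3:**
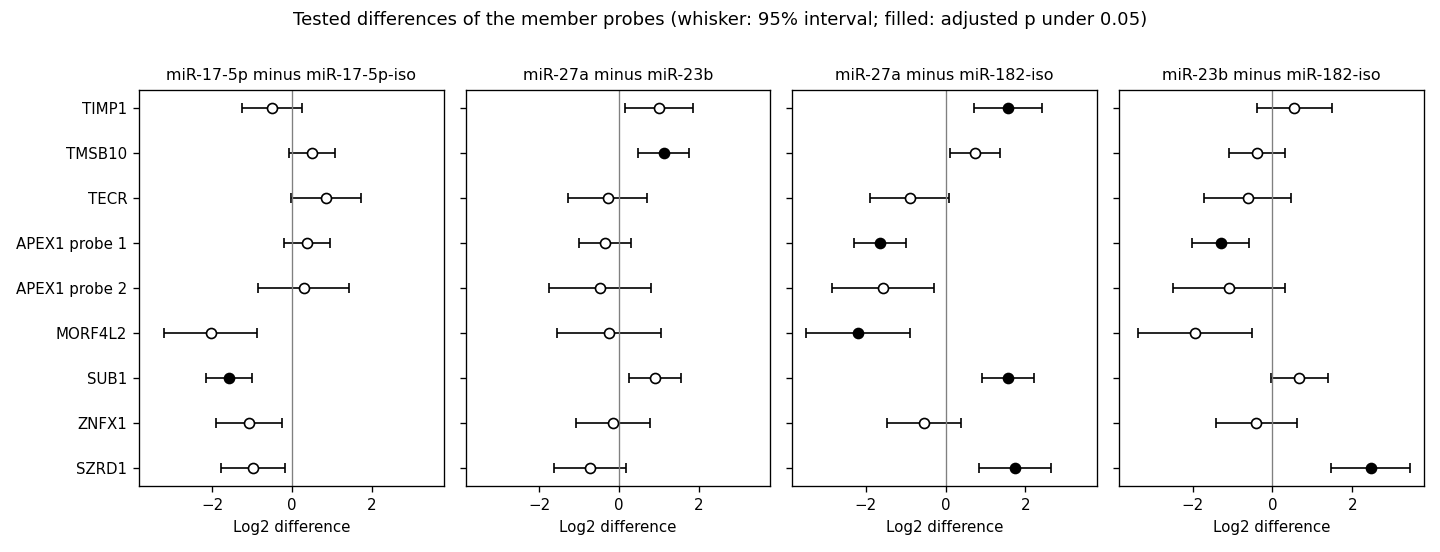
Differences of the 9 probes (y axis) in 4 tested comparisons (panels), in log2 units (x axis) with the 95% interval as whisker, and a filled point where the adjusted p was under 0.05. Only SUB1 is filled for miR-17-5p minus miR-17-5p-iso and only TMSB10 for miR-27a minus miR-23b, whereas 5 probes are filled for miR-27a minus miR-182-iso and 2 for miR-23b minus miR-182-iso.

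The unrelated duplexes did not give one common level for these genes, so what an excess is measured against was examined next. The genes were chosen against these same unrelated libraries, so the tests between them are not independent of the choice either. Between miR-27a and miR-23b, TMSB10 was the only gene past the threshold. Its signal was 1.12 ± 0.29 (SE) higher with miR-27a, at 12.5 ± 0.39 (SD, n = 3) against 11.4 ± 0.44 (n = 2), and the libraries did not overlap (limma, adjusted p = 0.0443). This call was lost in 13 of 18 alternatives, with an adjusted p from 0.0246 to 0.322 (limma), among them each fit without a library of miR-23b, miR-182-iso or miR-17-5p-iso, without miR-17-5p replicate 1, and without miR-27a replicate 1 or 3. TIMP1 (1.00, adjusted p = 0.142) and SUB1 (0.90, 0.0974) were also higher in mean with miR-27a but did not pass in limma. TIMP1 did pass without miR-27a replicate 2 (0.0419). One of 9 member probes passed, against 7.06% of all probes.

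Against miR-182-iso the genes went in opposite directions. With miR-27a, TIMP1 (1.55 ± 0.38, adjusted p = 0.0102), SUB1 (1.57 ± 0.29, 0.00267) and SZRD1 (1.74 ± 0.40, 0.00761) were higher, by limma with SEs given. APEX1, on its brighter probe, was lower by the same test (-1.65 ± 0.29, adjusted p = 0.00199), and so was MORF4L2 (-2.19 ± 0.59, 0.0149). These are 5 of 9 member probes, while 38.0% of all probes passed in this comparison. The dimmer APEX1 probe differed by nearly as much, -1.57 ± 0.58, and did not pass (limma, adjusted p = 0.0539). TMSB10 (0.73, 0.0679), TECR (-0.91, 0.133) and ZNFX1 (-0.55, 0.328) did not pass in limma. Without miR-17-5p replicate 2, TECR (0.014) and the dimmer APEX1 probe (0.00714) did, which the latter also did without miR-17-5p replicate 1 (0.0366), and TMSB10 passed without miR-17-5p replicate 3 (0.0447) or miR-27a replicate 2 (0.0374). Without miR-182-iso replicate 2 the calls of TIMP1 (adjusted p = 0.0882), SZRD1 (0.0676) and MORF4L2 (0.116) were lost in limma, and 2 member probes were left.

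With miR-23b, SZRD1 was again higher than with miR-182-iso, by 2.46 ± 0.44 (SE; limma, adjusted p = 0.0044), at 11.2 ± 0.57 (SD, n = 2) against 8.73 ± 0.16 (n = 2). APEX1, on its brighter probe, was lower, by -1.30 ± 0.32 (limma, adjusted p = 0.0167). That makes 2 of 9 member probes beside 24.6% of all. The SZRD1 call held in 17 of 17 alternatives, and that of APEX1 in 14, being lost without miR-182-iso replicate 2 (0.125) or either miR-23b replicate (0.0939 and 0.0627, limma). MORF4L2 differed by -1.93 ± 0.64 with an adjusted p of 0.0523 (limma) and passed in 7 of 17 alternatives, among them without miR-17-5p replicate 2 (0.0184) or 3 (0.048), without miR-27a replicate 1 (0.0348) and with only the groups compared (0.0233). Among the 3 unrelated groups, miR-182-iso had the highest mean for 5 probes, those of TECR, APEX1, MORF4L2 and ZNFX1, and the lowest for 3, those of TIMP1, SUB1 and SZRD1.

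For each gene the other genes with the nearest profile over the 13 libraries were found by the root mean square distance between profiles centred on their own means, a description of these libraries only. TECR lay nearest to GSTM2 (0.32) and GSTM1 (0.35), both glutathione S-transferases, and APEX1 to TUBB4B (0.29), a beta tubulin, and to TECR (0.37). Among the 2 nearest of each gene, this was the only case of one of the 8 genes next to another. AKTIP was nearest to TIMP1 (0.33), SUB1 (0.40) and SZRD1 (0.59), followed by WAC for TIMP1 (0.42) and SZRD1 (0.63) and by PALS1 for SUB1 (0.48). ZNFX1 was nearest to PXYLP1 (0.27) and ZFYVE26 (0.34), and TMSB10 to ESD (0.42) and TFG (0.48). MORF4L2 had no close neighbour, with PSMG1 at 0.74 and DYNLT1 at 0.86. The farthest pair among the 8 genes was MORF4L2 and SZRD1, at 1.63.

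Other genes of the same pathways and complexes passed the test against the unrelated duplexes about as often as genes in general. Of 156 genes listed, 96 were in the table, each represented by its brightest probe, and none of them is one of the 8. With miR-17-5p, 5 of the 96 were higher than with the unrelated duplexes and 4 lower (limma, adjusted p under 0.05), where 5.81% of all 8378 genes were higher and 4.91% lower. With the isomiR, 6 were higher and 4 lower, where 5.47% of all genes were higher and 3.13% lower. The median difference of the 96 was -0.01 with miR-17-5p and -0.07 with the isomiR, against -0.02 and -0.04 over all genes. Without miR-17-5p replicate 2, 14 of the 96 passed with miR-17-5p, as did 14.0% of all genes, and without both miR-182-iso libraries 18 passed, beside 17.8% of all genes. Both comparisons share their 7 unrelated libraries.

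Among TIMPs and metalloproteinases (5 of 24 listed genes measured), TIMP2, an inhibitor related to TIMP1, was 0.48 ± 0.12 (SE) higher with the isomiR (limma, adjusted p = 0.038), and ADAMTS1, a secreted metalloproteinase, was lower with miR-17-5p, by -0.37 ± 0.09 (limma, 0.0343). TIMP2 differed by -0.03 with miR-17-5p. Its signals were 9.76, 9.51 and 9.58 with the isomiR and 9.55 and 9.39 with miR-23b, so these groups overlapped. ADAMTS1 gave 9.43, 9.22 and 9.25 with miR-27a. It gave 8.44, 8.62 and 8.34 with miR-17-5p and 8.64 and 8.35 with miR-182-iso, so it was not clearly lower than with miR-182-iso. Each of these calls was lost in 10 of 19 alternatives, that of TIMP2 without any 1 library of the isomiR, miR-182-iso or miR-23b or without replicate 1 of miR-27a, and that of ADAMTS1 without miR-17-5p replicate 1 or 3, miR-182-iso replicate 1, replicate 1 or 3 of miR-27a or either of miR-23b (highest adjusted p in limma 0.138 and 0.163). The list medians were 0.00 with miR-17-5p and -0.02 with the isomiR.

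In base excision repair (19 of 22 measured), PCNA, the sliding clamp of DNA replication and repair, was 1.34 ± 0.26 (SE) higher with miR-17-5p (limma, adjusted p = 0.0112), at 12.7 ± 0.10 (SD, n = 3) against 11.4 in the mean of the unrelated groups. With the isomiR PCNA was 0.905 higher and did not pass (limma, adjusted p = 0.06). Its second probe, at 7.45 to 7.78 in all libraries, was too close to the lowest value in the table to be compared. APEX2, the paralog of APEX1, was 0.60 ± 0.16 higher with the isomiR (limma, 0.0431) and MUTYH, a DNA glycosylase, 0.44 ± 0.09 (0.0166), while the second probe of MUTYH stayed between 7.46 and 7.53, near the lowest value in the table, and could show no difference. APEX2 gave 9.80, 9.58 and 10.05 with the isomiR and 9.41 and 9.82 with miR-182-iso, so these groups overlapped. No gene of the list was lower past the threshold, and the medians were -0.04 and -0.06 with miR-17-5p and the isomiR. The PCNA call held in 19 of 19 alternatives. That of APEX2 was lost in 9 of 19, among them without isomiR replicate 1 or 3, miR-17-5p replicate 3, miR-182-iso replicate 1, replicate 2 or 3 of miR-27a or either of miR-23b, and that of MUTYH in 2 of 18, without isomiR replicate 1 or 2 (highest adjusted p in limma 0.213 and 0.0635).

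In the NuA4 acetyltransferase complex (14 of 17 measured), MEAF6, a shared subunit of acetyltransferase complexes, was lower with miR-17-5p, by -0.65 ± 0.16 (SE; limma, adjusted p = 0.0337), and with the isomiR, by -0.64 ± 0.16 (0.04). Its mean was 8.06 with miR-17-5p, 8.07 with the isomiR and 8.01 with miR-182-iso, against 9.27 with miR-23b and 8.86 with miR-27a, so it was not lower than with miR-182-iso. The second MEAF6 probe differed by -0.38 and -0.37 and did not pass (limma, 0.0644 and 0.0824). VPS72, a histone chaperone subunit, was lower with the isomiR, by -0.70 ± 0.11 (limma, 0.00493). Its level was 8.41 with the isomiR and 10.4 and 10.6 in the miR-182-iso libraries, and without these libraries it differed by -0.01. The MEAF6 call was lost in 6 of 18 alternatives with miR-17-5p, among them without miR-17-5p replicate 1 or 3, miR-182-iso replicate 1, miR-23b replicate 1 or miR-27a replicate 3, and in 11 of 18 with the isomiR, among them without any 1 of its own libraries (highest adjusted p in limma 0.124 and 0.182). No subunit was higher past the threshold. The list medians were -0.26 and -0.09.

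General transcription factors of RNA polymerase II (24 of 31 measured) held the largest partner differences. TAF4, a TFIID subunit, was 1.42 ± 0.19 (SE) higher with the isomiR (limma, adjusted p = 0.00183) and 0.14 higher with miR-17-5p (0.727). Its signals were 11.43, 10.57 and 10.88 with the isomiR and at most 10.09 in every other library. GTF2H5, a TFIIH subunit, was lower in both comparisons, by -1.17 ± 0.13 and -1.29 ± 0.13 (limma, 0.00104 and 0.000379). Its signals were 13.81, 13.60 and 13.99 with miR-27a, 10.32 and 10.19 with miR-23b, and 10.35 to 10.94 in the miR-17 libraries, so the miR-17 libraries were above those of miR-23b. TBP, the TATA-binding protein, was lower with the isomiR, by -0.35 ± 0.08 (limma, 0.026), a call lost in 9 of 19 alternatives, among them without any 1 library of the isomiR, miR-182-iso or miR-23b. Those of TAF4 and GTF2H5 held in 19 of 19. TBP signals were 9.01, 9.13 and 9.08 with the isomiR and 9.16 and 9.18 with miR-23b, so these groups were close. The medians were 0.07 and -0.04.

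For actin and proteins that bind its monomers (13 of 17 measured), PFN2, a profilin, was higher with miR-17-5p, by 0.73 ± 0.12 (SE; limma, adjusted p = 0.00642), and with the isomiR, by 0.69 ± 0.12 (0.00784). With miR-27a the PFN2 signals were 12.02, 11.78 and 11.76. They overlapped those with miR-17-5p, from 11.93, and with the isomiR, from 11.83. CFL1, a cofilin, was 0.85 ± 0.19 higher with miR-17-5p (limma, 0.0215), a call lost in 4 of 19 alternatives, those without miR-17-5p replicate 1 or 3, miR-182-iso replicate 1 or miR-23b replicate 1 (highest adjusted p in limma 0.0942). With the isomiR CFL1 was 0.61 higher and did not pass (limma, adjusted p = 0.0822). CFL1 signals were lowest with miR-27a, at 10.35, 10.79 and 10.32. In miR-17-5p replicate 2 CFL1 (11.73) was below miR-23b replicate 2 (11.82) and miR-182-iso replicate 2 (11.87). The PFN2 call with the isomiR was lost without isomiR replicate 3 (limma, 0.0535). No gene of this list was lower past the threshold, and the medians were 0.15 and -0.03. In fatty acid elongation and desaturation (11 of 17 measured), only SCD, the stearoyl-CoA desaturase, passed, and it was lower with miR-17-5p, by -0.72 ± 0.13 (limma, 0.00774; 19 of 19 alternatives), while the signal of TECR was 2.59 above the unrelated mean. The medians were -0.14 and -0.18.

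Among genes of viral RNA sensing and the interferon response (9 of 25 measured), IRF3, a transcription factor activated by RNA sensors, was higher with miR-17-5p, by 0.61 ± 0.07 (SE; limma, adjusted p = 0.00137), and with the isomiR, by 0.32 ± 0.07 (0.0231). IRF9, which acts downstream of interferon receptors, was 0.38 ± 0.09 higher with miR-17-5p (limma, 0.0262). With miR-17-5p the IRF3 call held in 18 of 18 alternatives. It was lost in 4 of 18 with the isomiR, without isomiR replicate 2 or 3, miR-182-iso replicate 2 or miR-23b replicate 1, and that of IRF9 also in 4 of 18, among them without miR-17-5p replicate 3, miR-182-iso replicate 1 or miR-23b replicate 1. The means of both with the unrelated duplexes, 7.99 and 7.65, lie in the compressed part of the scale. No gene of the list was lower past the threshold, and its medians were 0.12 and 0.00. Of 3 SUZ domain proteins, 1 was measured and did not pass.

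**Figure D4:**
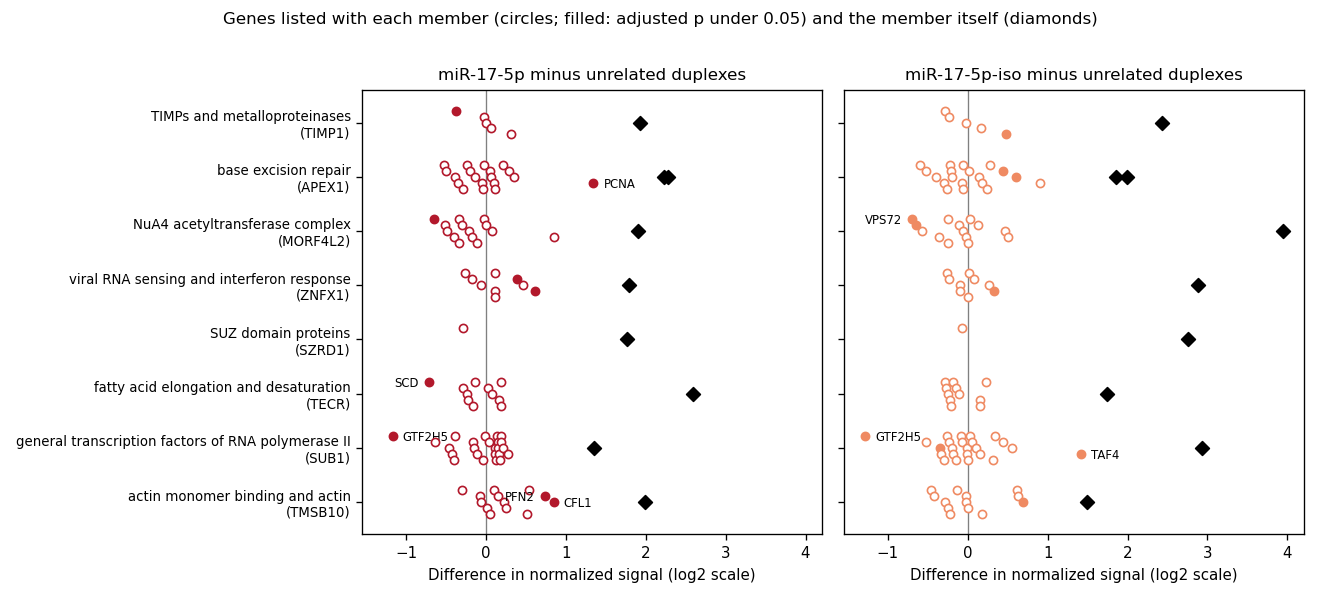
Differences of genes listed with each of the 8 genes (circles, filled where the adjusted p was under 0.05) and of the 8 genes themselves (black diamonds) in log2 units (x axis), by list (y axis), with miR-17-5p on the left and miR-17-5p-iso on the right. Most circles lie near 0, with PCNA (1.34), TAF4 (1.42) and GTF2H5 (-1.17 and -1.29) farthest out among those past the threshold, while the diamonds lie between 1.35 and 3.95.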

How the data were processed

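HEK293T pull-downs of 5 biotinylated duplexes were measured in 13 libraries on Illumina HT-12 arrays of more than 1 version, and no source used here ties a library to a version. In lumi 2.2.1 the authors made the deposited values, on a log2 scale, from the scanned signals (background adjustment, variance-stabilizing transformation, robust spline normalization), and kept probes detected in all mock-transfected controls. A second table, of signals before normalization, was not used, since the names of its 26 columns fit no sample label. Array number, not read depth, limits precision. Gene symbols come from the platform annotation, updated through RefSeq gene IDs (10442 probes matched) or synonyms (2); 1562 probes have no symbol and 1 has several. Nothing says that replicates came from separate cultures, so p-values measure the spread between these libraries.

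Differences were fitted with limma 3.58.1 in R 4.3.3 (lmFit, eBayes; 5 groups, all libraries) after a test on simulated data. Tests were two-sided, adjusted by Benjamini-Hochberg over 12007 probes and called at 0.05. The members, lists and tests were chosen with earlier results of these data known. Named were the 8 genes, the 2 nearest genes of each, and the 2 to 4 largest called genes of each list, or all if fewer. Alternatives were the replicate number as a block, quantile normalization, brighter probes only, only the groups compared, equal weights per library, every probe counted and each library left out; leaving out both miR-182-iso libraries was added after seeing the data. Transcript sequences were not used, so binding sites were not searched. Python 3.11.15 served for tables and, with matplotlib 3.10.9, for figures.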

Additional observations from a re-analysis of the deposited data

Results flagged for a closer look

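Tested directly, 3 of the named genes passed between the canonical miRNA and the isomiR, all by limma with Benjamini-Hochberg adjustment over all probes. In this fit 1.11% of all 12007 probes passed, and with only the groups compared 0 did. SUB1 was lower with miR-17-5p by -1.58 (adjusted p = 0.0264), with all 3 isomiR libraries above all 3 of miR-17-5p. TAF4 was lower with miR-17-5p by -1.28 (adjusted p = 0.0312), again with all 3 isomiR libraries higher. TBP was 0.50 higher with miR-17-5p (adjusted p = 0.0377), in 3 of 3 libraries. TAF4 and TBP were named because they passed for the isomiR against the unrelated duplexes, in the same isomiR libraries. Their direct tests are therefore not independent of that choice and are given as a description. No group holds the 4 libraries that a check for a single outlying library needs.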

How the results depend on the processing

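The median excess of the 9 member probes over the unrelated duplexes, 2.17, moved between 2.08 and 2.37 when each library was left out in turn. The genes were chosen on this excess in the same libraries, so nothing is read from its stability. All results rest on few libraries, 2 or 3 per group, and the counts of the other results moved with them. For miR-17-5p against the isomiR, 1 member probe passed in the fit reported and 2 with brighter probes only. With only the groups compared 0 passed, and without 1 library 0 to 2. The shares of all probes in these fits were 1.11%, 2.12%, 0% and 0.15% to 2.6%, in that order. For miR-27a against miR-23b, 1 passed in the fit reported, beside 7.06% of all probes. The count was 0 with only the groups compared (2.38% of all probes) and 0 without both miR-182-iso libraries (5.95%). Without 1 library of a group of 3 it was 0 to 2 (4.17% to 8.46%). Against miR-182-iso, 8 passed for miR-27a and 4 for miR-23b with only the groups compared (33.4% and 28.1% of all probes). In the fit reported these were 5 and 2. Without 1 library of a group of 3 they were 5 to 7 (31.4% to 40.2% of all probes) and 2 to 3 (22.8% to 27.1%).

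Partner genes past the threshold numbered 9 with miR-17-5p and 10 with the isomiR, where 10.7% and 8.59% of all genes passed. With miR-17-5p they ranged from 7 to 14 without 1 library of a group of 3, where 4.42% to 14.0% of all genes passed. The 14 were without miR-17-5p replicate 2 (14.0% of all genes). Without both miR-182-iso libraries they were 18 (17.8% of all genes). With the isomiR they ranged from 4 to 15 without 1 library of a group of 3, where 3.58% to 10.3% of all genes passed. They were 6, 5 and 4 without isomiR replicate 1, 2 and 3 (6.42%, 7.22% and 3.58% of all genes). With only the groups compared 16 passed, where 11.3% of all genes did. Member probes with all miR-17 libraries above all unrelated ones numbered 5 to 9 without 1 library, beside 1.87% to 2.78% of all probes. The 9 were without miR-17-5p replicate 2 (2.78%). Of 306 refits of single member differences from the unrelated duplexes, 7 moved by more than 1 SD, all on leaving out both miR-182-iso libraries, and 0 turned sign. As the genes were chosen on these differences, nothing is read from the absence of turned signs.

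Same-numbered libraries did not all deviate together (correlations of deviations from the group means of -0.28, -0.16 and 0.34 for miR-17-5p with the isomiR), and no label ties a number to a batch, so the numbers were not taken as pairs. They did go together in other groups (0.63, 0.47 and 0.10 for the isomiR with miR-27a, 0.57 and 0.45 for the isomiR with miR-23b, 0.59 and 0.53 for miR-23b with miR-27a). With the replicate number as a block, 2 member probes passed in limma for miR-17-5p against the isomiR, SUB1 and SZRD1, beside 0.999% of all probes. For miR-27a against miR-23b, SZRD1 (limma, adjusted p = 0.0457) took the place of TMSB10 (0.0713), where 7.56% of all probes passed. For miR-23b against miR-182-iso, MORF4L2 (limma, 0.048) was added, where 26.4% of all probes passed.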
